A study of Homo sapiens with 2 samples.

Results

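The death receptors and the complex that assembles on them were profiled by array in RKO, an established line of human colon cancer cells, after knockdown of the long form of BCLAF1. The set held 10 genes of the 19775 that the array annotation names by a probe set with 1 gene symbol. They were chosen by name, with no threshold on their values: FAS, TNFRSF10A, TNFRSF10B and TNFRSF1A as signalling receptors, TNFRSF10C and TNFRSF10D as decoy receptors, FADD and CFLAR as the adaptor and its regulator, and CASP8 and CASP10 as initiator caspases. Control cells carried a retroviral hairpin against luciferase (sh-Luci), and knockdown cells carried a retroviral hairpin against BCLAF1-L (sh-BCLAF1-L). In both, the medium was changed 24 h after infection and puromycin at 2 ug/ml was applied for 72 to 96 h. No member was targeted in either culture, and a further hairpin against BCLAF1 was not analysed here. There was 1 array per group, so each value is a single measurement, no replicate checks it and it carries no p-value.

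Death receptors are cell surface proteins of the TNF receptor family that carry an intracellular death domain. When a ligand clusters them, FAS and the TRAIL receptors TNFRSF10A (DR4) and TNFRSF10B (DR5) recruit the adaptor FADD. FADD in turn binds the procaspases CASP8 and CASP10, which activate each other by proximity and then cleave effector caspases or the BH3 protein BID. CFLAR (cellular FLIP) resembles CASP8, and its long form lacks caspase activity. It takes the place of caspases in this complex and limits their activation. TNFRSF10C and TNFRSF10D bind TRAIL but lack a functional death domain. TNFRSF1A, the main TNF receptor, signals first through TRADD to NF-kB, and through FADD and CASP8 only in a later complex.

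None of the 29 detected probe sets of the 10 genes differed by 1.5-fold between the arrays, where 0.696% of all 26452 detected probe sets with 1 gene symbol did. A probe set is a group of probes that reads stretches of a transcript. It was called detected when its mean log2(intensity + 1) over both arrays was at or above the 40th percentile of the whole table, an intensity of 63.7. Differences are knockdown minus control on that log2 scale, and folds are their antilogs. At or past 1.2-fold, 3 of the 29 were lower in the knockdown, or 10.3%, against 5.05% of all detected probe sets. None of the 29 was 1.2-fold higher, against 7.26%. Of these 3 probe sets, 2 belonged to FAS and 1 to TNFRSF1A, and with the FAS probe sets left out 1 of 25 remained, or 4%. Probe sets of a gene can share probes or transcripts and are not replicates. In RNA from whole cultures, a lower value in every cell and a smaller share of cells with the transcript cannot be told apart. The median over the 10 genes, each at its brightest probe set, was -0.040, against 0.019 over the 14507 detected genes. Of the 10 genes, 7 were below 0 and 3 above, where 45.0% of all detected genes were below 0. This count depends on the probe set chosen, since CFLAR, CASP8 and CASP10 had detected probe sets on both sides of 0.

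A scale of the scatter between probe sets was taken from probe sets of the same gene. In the 6752 genes that had 2 or more detected probe sets, the differences had a pooled within-gene SD of 0.16, or 1.12-fold. This SD mixes technical scatter with any difference between the transcripts read, and shared probes can lower it. It does not include the spread between cultures, infections or arrays. BCLAF1 itself was lower on all 6 of its probe sets, by 1.43-fold to 2.96-fold. The 18 bacterial spike-in probe sets all read higher for the knockdown (median difference 0.20), and the ratio of 3' to 5' probe sets was 3.41 on the control and 3.81 on the knockdown array for ACTB. The part of these array differences in the values below was not tested. Of the epithelial markers, EPCAM read 477 on the control and 472 on the knockdown array and KRT18 read 979 and 674, whereas KRT19 and CDH1 were below detection on both arrays. KRT8 read 96.0 and 97.6, CDX2 67.4 and 77.3 and VIL1 61.1 and 67.5. Of the markers of other cell types, 2 of 5 for blood, 2 of 5 for endothelium and 4 of 6 for fibroblasts had a detected probe set. On the control array CD3E read 135 and HBB 196 for blood, and PECAM1 119 and VWF 177 for endothelium. For fibroblasts COL1A1 read 355, COL1A2 67.0, DCN 96.2 and LUM 63.4. Detection here is a rank within the table and not a call of expression. PTPRC, which marks blood cells, CDH5, KDR and TEK of endothelium and COL3A1 and PDGFRB of fibroblasts were below detection.

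**Figure D1:**
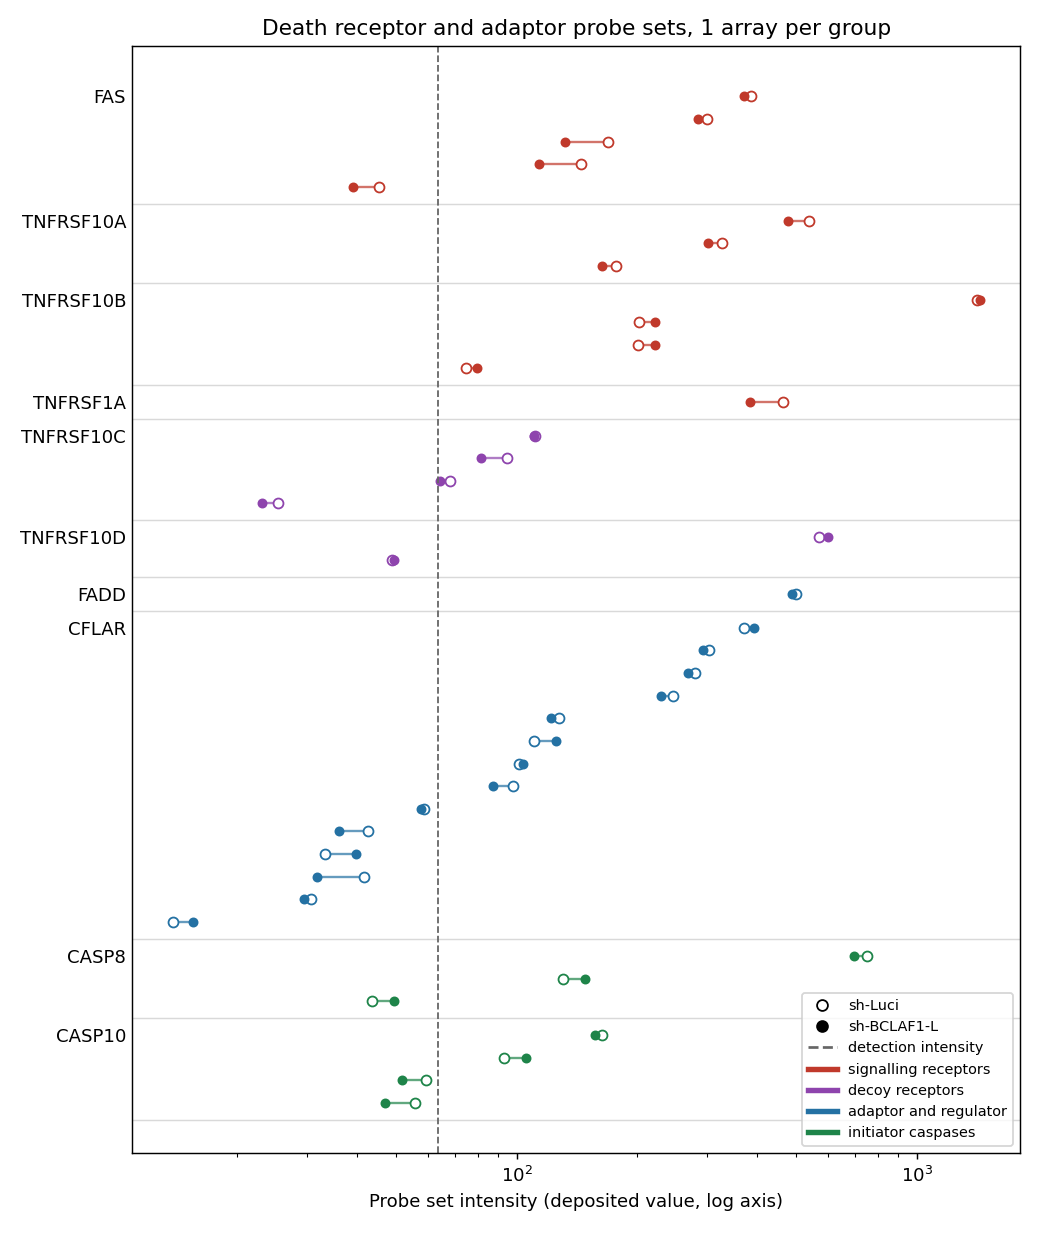
Each line is 1 of the 41 probe sets of the 10 genes, with the deposited intensity on a log axis, the sh-Luci array as an open circle and the sh-BCLAF1-L array as a filled circle, and the detection intensity of 63.7 as a dashed line. All 5 FAS and all 3 TNFRSF10A probe sets lie lower in the knockdown and all 4 TNFRSF10B probe sets lie higher, while the CFLAR probe sets go both ways.

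The proximal promoters of FAS and TNFRSF1A are shown because these 2 genes held every detected member probe set that was 1.2-fold lower. Each is the 250 bases before a transcription start, from RefSeq on GRCh38.p14, written 5' to 3' on the gene's strand. FAS has 3 listed starts, and the sequence before the first listed is given, chr10:88990548-88990797 on the plus strand. The TNFRSF1A sequence is chr12:6342077-6342326 on the minus strand. Capitals mark matches, on either strand, to the motifs named after the sequences.
FAS: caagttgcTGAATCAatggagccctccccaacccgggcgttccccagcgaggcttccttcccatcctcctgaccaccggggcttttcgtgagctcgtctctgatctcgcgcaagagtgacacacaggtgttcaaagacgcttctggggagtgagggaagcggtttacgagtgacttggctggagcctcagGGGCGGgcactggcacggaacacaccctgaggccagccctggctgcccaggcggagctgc
TNFRSF1A: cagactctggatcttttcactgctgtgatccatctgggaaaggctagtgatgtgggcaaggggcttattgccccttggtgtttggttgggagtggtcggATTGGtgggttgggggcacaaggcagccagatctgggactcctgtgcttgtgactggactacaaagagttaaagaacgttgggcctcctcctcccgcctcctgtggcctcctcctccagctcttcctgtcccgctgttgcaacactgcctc

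The searched motifs were GGGCGG (the GC box), CCAAT (the CCAAT box), TATAAA (the TATA box), TGANTCA (bound by AP-1) and TTCNNNGAA (the GAS element of STAT factors). The FAS sequence held 1 GC box and 1 AP-1 match, and these did not overlap. The sequences before the other 2 FAS starts held no AP-1 match, and 1 and 2 GC boxes. The one with 1 GC box, chr10:88990664-88990913, overlaps the sequence shown, and this GC box is the same site in both. The GC box occurs in 42.6% and the AP-1 motif in 6.57% of the 35116 RefSeq promoter entries cut to this length. The TNFRSF1A sequence held 1 CCAAT match, read as ATTGG on its strand, and CCAAT occurs in 11240 of the 35116 entries. Neither held a TATA box (10.7% of entries) or a GAS match (6.57%). GC content was 62.8% for FAS and 56.8% for TNFRSF1A, and the median promoter had 58.0%. A match is a string of letters and not a measured binding site.

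Among the signalling receptors, FAS was lower on all 5 of its probe sets, but by unequal amounts. Its 2 brightest probe sets, both of the _s_at kind, read 385 and 300.0 in the control and 370.3 and 284 in the knockdown. They were thus 1.04-fold and 1.06-fold lower. Both _x_at probe sets were lower by more. The brighter of them read 169 in sh-Luci cells and 132 in sh-BCLAF1-L cells, 1.28-fold lower, and the other read 145 and 114, also 1.28-fold lower. The mean difference was -0.35 over the _x_at pair and -0.066 over the _s_at pair, a gap of 0.29. Names ending in _x_at mark probe sets whose probes can also match other transcripts, and _s_at names mark probe sets shared by several transcripts. No source used here states which FAS transcripts each of them reads. The remaining FAS probe set lay below detection, at 45.3 and 39.0.

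Whether a gene's probe sets all going the same way is unusual depends on their number. Of 771 genes with 4 detected probe sets, 9.21% were lower on all 4, as FAS was, and 15.8% were higher on all 4. The lower FAS _x_at probe sets lay at the edge of the probe sets of like intensity, the 2000 nearest in mean intensity, whose central 95% began at -0.33 for the brighter and -0.35 for the other. Of all detected probe sets, 4.88% lay outside the central 95% of their neighbours, and of the 29 member probe sets 1 did, the brighter _x_at probe set of FAS.

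The TRAIL receptors lay on opposite sides of 0 by small amounts, and TNFRSF10B was near the centre of all genes at its brightest probe set. TNFRSF10A (DR4) read 539 in sh-Luci cells and 477 in sh-BCLAF1-L cells on its brightest probe set, 1.13-fold lower. Its other probe sets read 325 and 177 in the control and 301 and 164 in the knockdown, each 1.08-fold lower. Its 3 differences lay close together, between -0.17 and -0.11. TNFRSF10B (DR5) read 1411 and 1440.0 on its brightest probe set, 1.02-fold higher. This difference of 0.030 was near the median of 0.019 over all detected genes, and 53.1% of them had a lower one. With the median over all probe sets subtracted it was 0.0039. The pair of TNFRSF10B _x_at probe sets read 203 and 201 in the control and 222 and 221 in the knockdown, with log2 differences of 0.13 and 0.14. The dimmest TNFRSF10B probe set read 74.7 and 79.7. Its 4 differences lay between 0.030 and 0.14. The medians of the receptors over their detected probe sets were 0.22 apart. The SD of the difference over all detected genes was 0.17. How often any pair of genes lies this far apart was not counted. Of genes with 3 detected probe sets, 15.3% were lower on all 3, and 15.8% of genes with 4 were higher on all 4. Each TRAIL receptor probe set lay inside the central 95% of probe sets of like intensity. The difference between the receptors was not tested, since 1 array per group gives no spread for it.

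TNFRSF1A had the lowest difference of the 10 genes at their brightest probe set. It read 462 in sh-Luci cells and 382 in sh-BCLAF1-L cells, 1.21-fold lower. This rested on a single probe set, which is of the _s_at kind. Of the 14507 detected genes, 3.78% had a lower difference, and 4.26% were at least 1.2-fold lower. Among probe sets of like intensity, the central 95% ran from -0.30 to 0.33, so the TNFRSF1A value of -0.27 lay inside it.

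The decoy receptors differed little between the arrays on their brightest probe sets. TNFRSF10D (DcR2), whose death domain is truncated, read 571 in sh-Luci cells and 599.9 in sh-BCLAF1-L cells, 1.05-fold higher, and its other probe set was below detection at 49.0 and 49.3. TNFRSF10C (DcR1), which is anchored in the membrane by a lipid tail, was dim throughout. It read 112 and 111 on its brightest probe set, 94.7 and 81.6 on the next and 68.2 and 64.4 on the third, which lay close to the detection intensity of 63.7. These were 1.01-fold, 1.16-fold and 1.06-fold lower. The remaining probe set was below detection, at 25.4 and 23.2. The decoys did not share a direction, and the median was 0.029 for them against -0.11 for the signalling receptors.

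**Figure D2:**
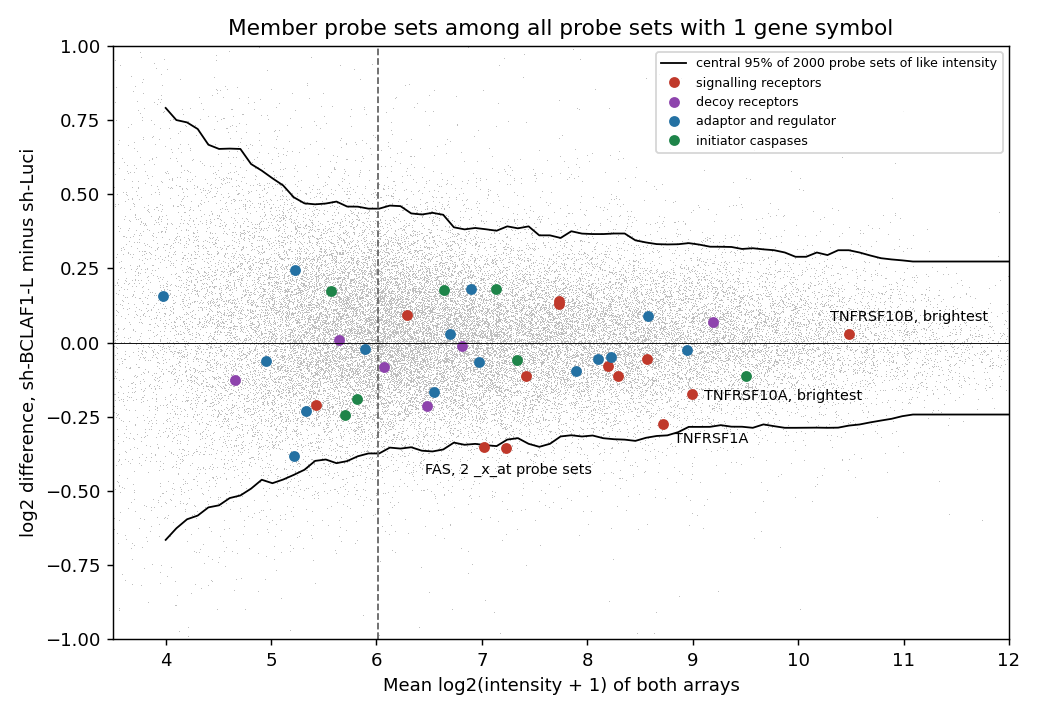
Each point is a probe set, with the mean log2(intensity + 1) of both arrays on the x axis and the knockdown minus control log2 difference on the y axis. Grey points are all probe sets with 1 gene symbol, coloured points are the 41 member probe sets by role, black lines bound the central 95% of the 2000 probe sets of nearest intensity, and the dashed line is the detection threshold; grey points beyond the axes are not drawn. Both _x_at probe sets of FAS, at -0.36 and -0.35, lie at the lower line, and TNFRSF1A at -0.27 lies just above it.

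FADD, the adaptor that bridges receptor and caspase, hardly differed. Its only probe set read 498 in sh-Luci cells and 489 in sh-BCLAF1-L cells, 1.02-fold lower, and 38.5% of detected genes had a lower difference. CFLAR, which competes with caspases for FADD, had 14 probe sets, of which 8 were detected. The brightest read 369 and 393, 1.06-fold higher. The 3 next brightest read 303, 278 and 245 in the control and 293, 268 and 229.7 in the knockdown, 1.03-fold, 1.04-fold and 1.07-fold lower. Over the 8 detected probe sets, 5 were lower and 3 higher, with a median of -0.051 and a range of -0.17 to 0.18. Their SD was 0.11, below the pooled within-gene SD of 0.16. The direction of CFLAR therefore depended on the probe set chosen. The 6 undetected probe sets read between 13.8 and 58.6 in the control, and the largest difference among them was -0.38, at 41.5 and 31.7. Alternative splicing yields long and short CFLAR proteins, and no source used here states which of them each probe set reads.

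The initiator caspases had probe sets that disagreed. CASP8, the main initiator in this pathway, read 753 in sh-Luci cells and 697 in sh-BCLAF1-L cells on its brightest probe set, 1.08-fold lower. Its second detected probe set read 131 and 148, 1.13-fold higher, so the detected probe sets were 0.29 apart. The undetected one, at 43.5 and 49.3, was also higher in the knockdown. CASP10, a close relative of CASP8, read 164 and 157 on its brightest probe set, 1.04-fold lower. Its second detected probe set read 93.1 and 105, 1.13-fold higher, a gap of 0.24. Both undetected CASP10 probe sets were lower, at 59.3 and 51.8 and at 55.8 and 47.0. Each caspase thus had detected probe sets on both sides of 0, and no direction could be given to either gene.

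The roles were set side by side by their medians, over 2 to 4 genes each and with no test. The median difference was -0.11 for the 4 signalling receptors, -0.085 for the initiator caspases, 0.029 for the decoy receptors and 0.031 for FADD and CFLAR. The highest and lowest of these were 0.15 apart. The medians over all detected probe sets of a role were -0.095, 0.059, -0.047 and -0.048 in the same order, which turned the sign of each role but the signalling receptors. Of the 7 member genes with several detected probe sets, 4 went the same way on each of them: FAS, TNFRSF10A and TNFRSF10C lower and TNFRSF10B higher. Of all genes with 3 detected probe sets, 15.3% were lower on all 3. Of those with 4, 9.21% were lower and 15.8% higher on all 4.

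The wider pathway was described with 5 lists of 44 further genes, of which 37 had a probe set with 1 gene symbol and 32 a detected one; the others were not analysed here. At their brightest probe set 13 were higher in the knockdown and 19 lower, with a median of -0.046. Of all detected genes, 45.0% were below 0 and the median was 0.019. The direction counts of these lists were not tested. At or past 1.2-fold, 1 of the 32 was higher, against 6.86% of detected genes, and 0 were lower, against 4.26%. None of the 32 reached 1.5-fold, against 0.634%.

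The gene past 1.2-fold was the ligand LTA (lymphotoxin alpha), which read 77.6 in sh-Luci cells and 99.8 in sh-BCLAF1-L cells, 1.28-fold higher, on a single dim probe set. TNF, the ligand of TNFRSF1A, read 105 and 118, 1.13-fold higher. FASLG, the ligand of FAS, read 74.2 and 71.3, 1.04-fold lower. TNFSF10, which encodes TRAIL, was below detection on each of its 3 probe sets, and its brightest read 44.2 and 42.0. TNFSF15, a ligand of TNFRSF25, read 78.2 and 65.3, a log2 difference of -0.26 that stayed just short of 1.2-fold. The central 95% of probe sets as dim as that of LTA ran from -0.37 to 0.43, and the LTA difference of 0.36 lay inside it.

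In the other lists no detected gene reached 1.2-fold at its brightest probe set. Among other death receptors, TNFRSF25 (DR3) read 144 and 169, 1.17-fold higher, and TNFRSF21 (DR6) read 341 and 386, 1.13-fold higher. Their other detected probe sets differed by less. The median over the 5 of TNFRSF25 was 0.082, and the other TNFRSF21 probe set differed by 0.031. Against 45.0% of all detected genes, 6 of 9 detected adaptors and relatives of the complex were lower. The lowest were PEA15, a death effector domain protein, at 893 and 781 (1.14-fold lower) and DEDD2, another protein with this domain, at 545 and 479.9 (1.14-fold lower). The 10 detected ubiquitin regulators divided into 5 higher and 5 lower. RBCK1 (HOIL-1), a subunit of the linear ubiquitin ligase, differed by 0.14 at its brightest probe set, and so did CYLD, a deubiquitinase. The 6 detected CYLD probe sets went both ways, from -0.19 to 0.22. Another RBCK1 probe set went the other way, 1.25-fold lower at 194 and 155. Downstream, against the same 45.0%, 5 of 6 detected genes were lower. Of these, CYCS (cytochrome c) read 4405 and 3817, 1.15-fold lower, and BAK1, which permeabilises the outer mitochondrial membrane, read 278 and 241, also 1.15-fold lower.

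**Figure D3:**
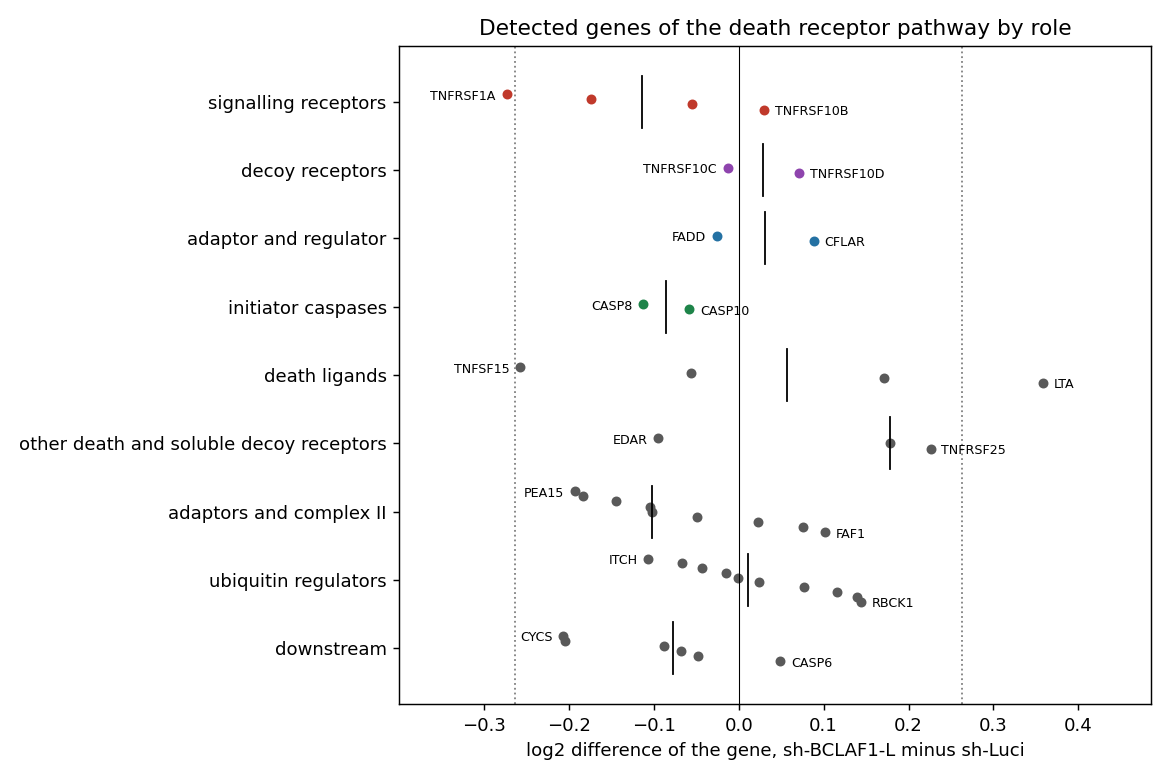
Each point is a detected gene at its brightest probe set, placed by its log2 difference, knockdown minus control, in rows by role with a vertical bar at the row median. The vertical offset within a row only separates points, and dotted lines mark 1.2-fold. TNFRSF1A at -0.27 and LTA at 0.36 are the 2 plotted genes past these lines.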

How the data were processed

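The members and gene lists were chosen with earlier results of these data known. The values were deposited as linear intensities, 1 for each probe set, for which the submitters' processing notes name RMA. No source used here names the program, its version or the final scaling. The table held 54675 probe sets, of which 41097 had 1 gene symbol in the annotation used here, updated through Entrez identifiers in RefSeq. Intensities were transformed as log2(value + 1). A gene took its brightest probe set, and every member probe set was also given. Of the wider lists, all ligands were named, and in each other list genes past 1.2-fold or else the 2 with the largest difference. No likeness of pattern can be computed over 2 arrays. The procedure was tested on simulated data. RefSeq promoter entries matched 5 members. Python 3.11.15, pandas 2.3.3 and statsmodels 0.14.6 were used. The alternatives were the median over probe sets, leaving out _s_at and _x_at probe sets, a pseudocount of 32, subtraction of the median or a loess curve (span 0.3), and other filters. The number of arrays limits the precision.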

Additional observations from a re-analysis of the deposited data

How the results depend on the processing

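No paired analysis was possible because there was only 1 array in a group. The signs of FAS, TNFRSF10A, TNFRSF10B, TNFRSF1A, TNFRSF10C, TNFRSF10D and FADD held in every alternative that gave them a value. TNFRSF1A has none without _s_at and _x_at probe sets. All probe sets of each of these genes had the same sign, so settings that change only the probe sets used could not turn it. A pseudocount cannot turn a sign either. Subtraction of the median lowered every value. Only TNFRSF10B and TNFRSF10D could turn by it, and they were then 0.0039 and 0.045. CASP8 was 0.18 with the median over all probe sets and 0.18 without _s_at and _x_at probe sets. Both are the value of its only undetected probe set. In the latter setting FAS at -0.21 and CFLAR at -0.022 also rested on an undetected probe set. In that same setting CASP10 was 0.18 and the initiator caspase median was 0.18. There 0 member probe sets were at least 1.2-fold lower, a count fixed by the setting. The 3 reported as lower are all of the _s_at or _x_at kind and were left out. The lower count, 3 as reported, was 4 with no filter, 2 with a pseudocount of 32 and 1 without the FAS probe sets, a setting chosen after seeing the data. The median of the 10 genes ran from -0.077 to -0.013, CFLAR from -0.051 to 0.088, the decoy receptor median from -0.032 to 0.029 and the median of FADD and CFLAR from -0.038 to 0.031. The counts of 0 at 1.2-fold higher and at 1.5-fold held in all settings run.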

Other observations

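Several pathway genes had a dimmer probe set that differed by more than the brightest one, and these were singled out after their values were seen. Of the 71 detected probe sets of the 5 lists, 4 were at least 1.2-fold lower, against 5.05% of all detected probe sets, and 4 at least 1.2-fold higher, against 7.26%, so these counts are near the general rate. PEA15 read 375 on the control and 267 on the knockdown array on its second probe set, 1.41-fold lower, and its brightest was also lower. DEDD, a death effector domain protein, read 121 and 84.9 on an _x_at probe set, 1.41-fold lower, with all 3 of its detected probe sets lower. DAXX, a protein first described as a FAS partner, read 278 and 221 on its second probe set. ITCH, a ubiquitin ligase, was 1.28-fold and 1.26-fold higher on a pair of dimmer probe sets, while its brightest differed by -0.11. RBCK1 was 1.25-fold lower on a dimmer probe set, while its brightest differed by 0.14. XIAP, a caspase inhibitor, was 1.23-fold higher on an _x_at probe set, while its brightest differed by -0.043. The median over the 7 detected XIAP probe sets was -0.030. LTA held the remaining probe set past 1.2-fold. A pair of probe sets that the annotation assigns to TNFRSF10C together with a further locus entered no comparison, and they read 32.6 and 79.4 in the control and 34.8 and 72.9 in the knockdown.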
